A study of Homo sapiens with 24 samples.

Results

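The study lowered the transcription factor TFAP2C (AP-2 gamma) in breast carcinoma lines, and for the line HCC1954 it holds a pair of control groups, made in different ways, which are compared here with each other. The siRNA control consists of HCC1954 cells transfected with Negative control siRNA#2 in Lipofectamine RNAi_Max and collected 72 to 96 h later. The shRNA control consists of HCC1954 cell clones carrying a lentiviral cassette for the non-targeting hairpin SHC002. Each group has 3 samples, so 6 of the study's 24 samples and 2 of its 8 groups are compared. For reference, values are also given for HCC1954 cells transfected with TFAP2C siRNA and for the siRNA control of the line SKBR3, with 3 samples each. The compared groups were chosen by group label, with no measured value used. Both compared groups were labelled as HCC1954 between passage 5 and 10, and both got an RNeasy extraction and a TruSeq RNA library from 1 ug of total RNA. The labels name neither a selection agent nor the number of clones, give no untreated group, and state that the lines were not authenticated by the submitters.

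The tables give 1 pooled expression value (FPKM, fragments per kilobase of transcript, scaled to the size of the library) a transcript and group, and no value of a single sample. Replicate spread and sequencing depth are therefore unknown, no difference below was tested, and all are descriptions of 2 pooled values. Values were summed over the transcripts of a gene symbol and expressed in ppm (parts in 1000000) of the summed FPKM of all protein-coding genes of that group, and "level" means this quantity throughout. A symbol was counted where its level was at least 1 ppm in 1 of the 2 controls. The treatment of the cells, the clone and the table all differ between the groups. Their libraries have the same kit but may have been made apart. These differences cannot be told apart in any result.

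HCC1954 is a HER2-amplified, hormone receptor-negative breast carcinoma line. Transfection delivers a synthetic duplex in cationic lipid for a few days, whereas a lentiviral cassette is inserted in the genome and makes its hairpin continuously, in cells that have grown out after infection. Double-stranded RNA can be sensed by cytoplasmic receptors that switch on interferon-stimulated genes. Amino acid shortage, haem shortage, double-stranded RNA and endoplasmic reticulum stress all converge on translation of the transcription factor ATF4, and NF-kB drives cytokine genes in epithelial cells.

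The epithelial and HER2 markers were present in both controls. EPCAM, an epithelial adhesion molecule, had a level of 266 ppm in the siRNA control and 277 ppm in the shRNA control, and the simple keratin KRT8 had 2434 and 2222 ppm. E-cadherin (CDH1) was at 622 and 368 ppm, beside 0.218 ppm in the SKBR3 siRNA control, a line known to have lost this gene. KRT18 was at 3032 and 1135 ppm, KRT7 at 4150.3 and 1581 ppm, CD24 at 2732 and 2062 ppm, and the mucin MUC1 at 522 and 149.9 ppm. KRT19 was low in both (17.9 and 49.3 ppm, against 5212 ppm in SKBR3). Oestrogen receptor (ESR1) was at 6.87 and 15.5 ppm, and progesterone receptor (PGR) was listed at 0 in both. Of 79 genes high in SKBR3 and lacking in the siRNA control, 71 were below 1 ppm in the shRNA control and 3 were at 10 ppm or more. Of 101 genes with the opposite pattern, 67 were at 10 ppm or more in the shRNA control and 5 were below 1 ppm. Immune markers summed to 21.6 and 18.1 ppm over 8 genes, most of it from CD68, and 7 fibroblast markers summed to 3.28 and 0.855 ppm. PTPRC was at 0.127 and 0.0843 ppm, and CD3E, COL1A2, COL3A1 and LUM were listed at 0 in both. The 5 endothelial markers summed to 75.2 and 53.4 ppm, carried by PECAM1 (64.3 and 28.7 ppm) and CDH5 (9.63 and 23.7 ppm).

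Of 14824 symbols counted, 5446 (36.7%) were at least 2-fold apart between the controls, 2921 (19.7%) higher in the shRNA control and 2525 (17.0%) higher in the siRNA control. At least 4-fold apart were 2172 (14.7%), 1056 (7.12%) higher in the shRNA control and 1116 (7.53%) higher in the siRNA control. Among the 12714 protein-coding symbols the shares were 32.2% at 2-fold and 10.4% at 4-fold. At 2-fold, 2271 of these were higher in the shRNA control and 1824 in the siRNA control. Most lists below hold protein-coding genes, for which these shares are the closer yardstick. The TFAP2C siRNA group and the siRNA control share transfection, library kit and table. As a measure of how far apart 2 groups of the siRNA table lie, they were 2-fold apart for 797 (5.38%) of the same symbols. The SD of the log2 ratio over the 12794 symbols at 1 ppm or more in these 3 groups was 1.07 between the controls and 0.32 between the TFAP2C siRNA group and the siRNA control. SKBR3 and HCC1954 siRNA controls, 2 different lines under the same reagents, were 2-fold apart for 6785 symbols (45.8%), and the SKBR3 siRNA control and the HCC1954 shRNA control for 6283 (42.4%). The median log2 ratio over all symbols counted was 0.13, so that a list median is read against that value.

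**Figure D1:**
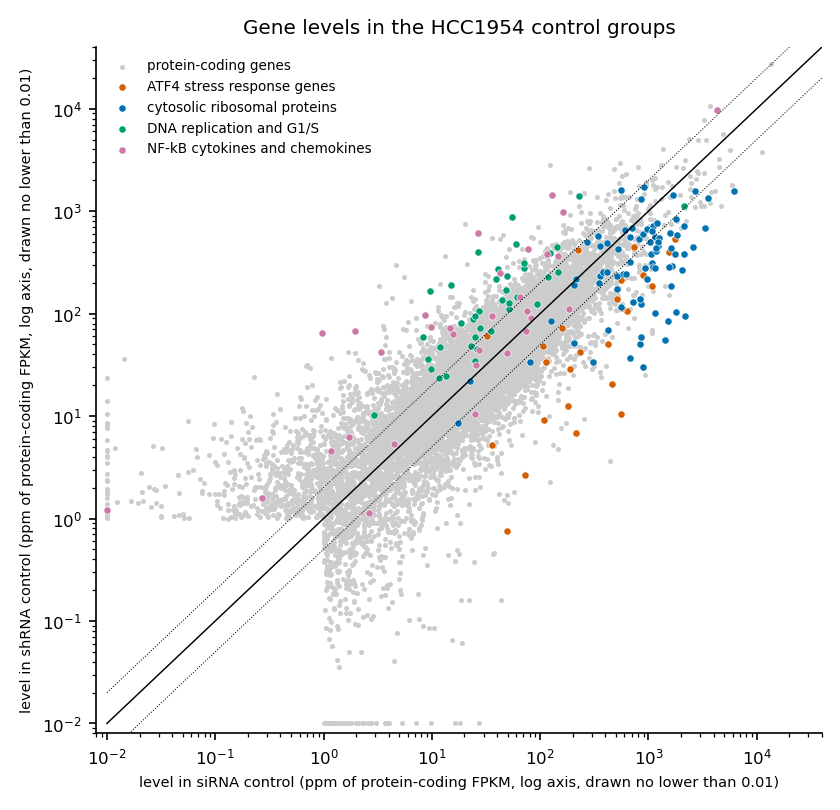
Each point is a protein-coding gene, with its level in the siRNA control on the x axis and in the shRNA control on the y axis (ppm of protein-coding FPKM, log axes, values under 0.01 drawn at 0.01). The solid line marks equal levels and the dotted lines 2-fold. ATF4 stress genes (orange) and ribosomal protein genes (blue) lie mostly below the line, and replication genes (green) and NF-kB genes (pink) mostly above it.

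Rank order, which needs no scaling, was compared as well. Across the 22072 symbols detected, Spearman's rho was 0.884 between the HCC1954 controls, 0.956 between the siRNA control and the TFAP2C siRNA group, 0.822 between the siRNA controls of HCC1954 and SKBR3, and 0.870 between the HCC1954 shRNA control and the SKBR3 siRNA control. Over the 12714 protein-coding symbols counted these values were 0.885, 0.991, 0.793 and 0.801. They describe pooled values that share a line, a table or neither, and symbols are not independent replicates. A shift of 25 percentile points or more was found for 938 symbols, 598 of them ranked higher in the siRNA control and 340 in the shRNA control. These ranks include short RNA entries, many more of which were above 0 in the siRNA control, as described next. Their part in this excess was not tested, and no count for protein-coding genes alone is given.

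The tables themselves differed most in entries for short RNAs. Entries annotated as miRNA held 10.9% of all FPKM in the siRNA control and 0.707% in the shRNA control, and entries of snoRNAs, small nucleolar RNAs that guide modification of ribosomal RNA, held 10.5% and 0.373%. The number of miRNA entries above 0 was 167 against 6, and of snoRNA entries 202 against 28. The TFAP2C siRNA group of the same table was close to its control (11.1% miRNA and 9.62% snoRNA), whereas the transfected SKBR3 control had 1.19% and 0.994%. The highest entries were SNORD141B, with 21360 FPKM in the siRNA control and 739 in the shRNA control, and MIR4426 and MIR205, with 15100 and 4197 FPKM in the siRNA control and listed at 0 in the shRNA control. Ribosomal RNA entries went the other way, from 0.207% to 2.32%. Protein-coding genes held 75.0% and 91.6% of all FPKM, and for this reason every level here is scaled to protein-coding genes alone. FPKM of a feature shorter than a fragment depends strongly on how its length is corrected, and no value here separates RNA content from that correction. How this difference bears on the genes below was not tested.

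**Figure D2:**
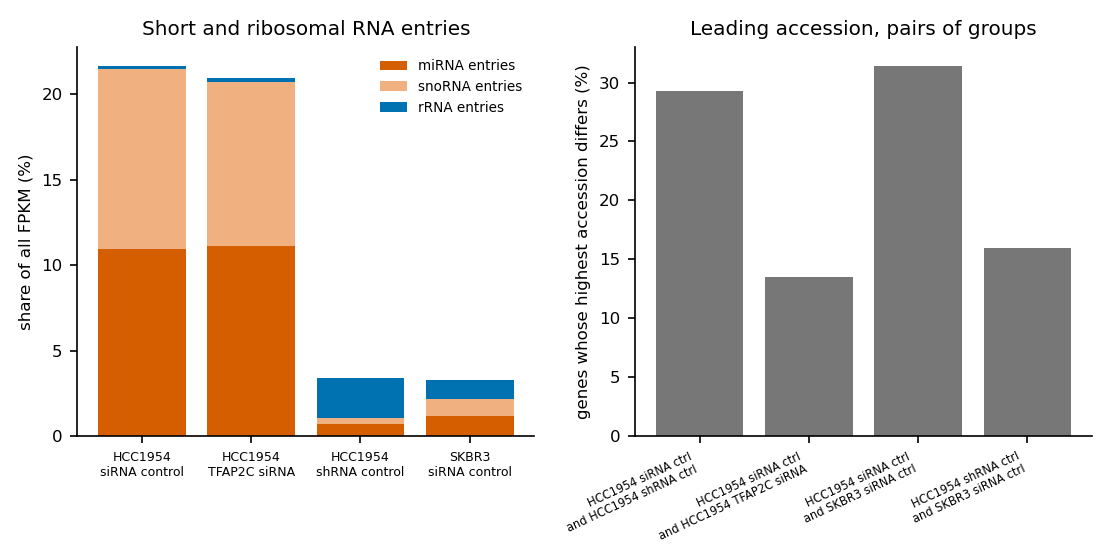
Left, the share of all FPKM (%) held by miRNA, snoRNA and ribosomal RNA entries in 4 groups. The HCC1954 siRNA groups carry about 10.9% or more in miRNA entries, against 0.707% in the shRNA control and 1.19% in SKBR3. Right, the share (%) of genes whose highest transcript is a different one in the 2 groups named, from 13.5% within the siRNA table to 31.4%.

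The share of FPKM assigned to individual transcripts of a gene also differed, most where the HCC1954 siRNA control was set beside a group of another table. Among 6694 genes with several accessions, the highest accession was a different one in the 2 controls for 1961 (29.3%), compared with 13.5% between the TFAP2C siRNA group and its control, 31.4% between the HCC1954 and SKBR3 siRNA controls, and 16.0% between the shRNA control and the SKBR3 siRNA control. GRB7, an adaptor protein encoded beside ERBB2, shows this. Its accession NM_001030002 had 1061 FPKM in the siRNA control and 30.5 in the shRNA control, while NM_005310 had 289 and 218. Composition had a weaker relation with the ratio. Over 12496 protein-coding genes the log2 ratio of shRNA to siRNA control had a Spearman rho of -0.197 with transcript GC content and 0.101 with transcript length, and the median log2 ratio went from 0.35 in the fifth of genes with the lowest GC to -0.20 in the fifth with the highest. Removing this trend left 4572 symbols 2-fold apart. It could be removed only for symbols above 0 in both controls and with a known length and GC. The 460 symbols listed at 0 in 1 control are thus left out, and the fall from 5446 in part reflects this smaller set.

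Of 40 gene lists with 5 or more counted members, 10 had a median log2 ratio of at least 1 in size, 4 towards the shRNA control and 6 towards the siRNA control. Replication genes, NF-kB genes, mesenchymal genes and mitosis genes had the highest medians (1.80, 1.79, 1.60 and 1.06). ATF4 stress genes, ERBB receptors and ligands, ribosomal proteins, interferon-stimulated genes, antigen presentation genes and luminal genes had the lowest (-2.46, -1.45, -1.37, -1.11, -1.05 and -1.05). In the TFAP2C siRNA group over the siRNA control, 0 of the 40 medians reached 1 in size, and their range was -0.21 to 0.74. The 2 comparisons share the siRNA control.

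**Figure D3:**
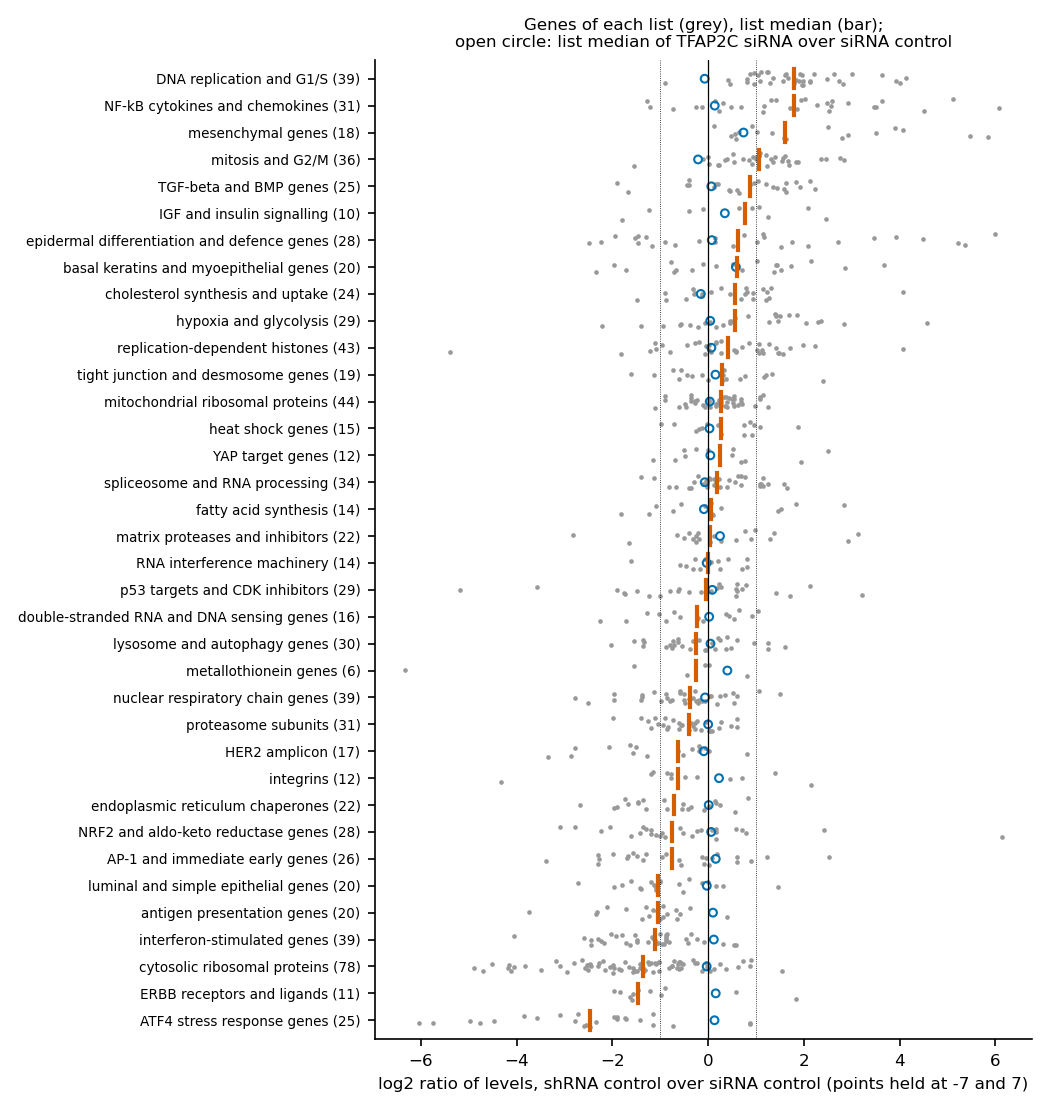
Log2 ratio of levels (shRNA over siRNA control) of the counted genes of each list that were above 0 in both, with the number counted in brackets. Grey points are genes, orange bars list medians, and open blue circles the median of the same genes between the TFAP2C siRNA group and the siRNA control. Dotted lines mark 2-fold. Medians run from -2.46 for ATF4 stress genes to 1.80 for replication genes, while the circles stay between -0.21 and 0.74 in all lists drawn.

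The ATF4 list stood lowest. ATF4 binds composite sites in genes that include those for amino acid import and synthesis. Of the 25 genes of the list, 22 were at least 2-fold higher in the siRNA control and 0 in the shRNA control. Of all symbols, 17.0% were higher in the siRNA control. The core of the composite site, TGATGNAA searched on both strands of the 250 bases before the start site (RefSeq, GRCh38.p14), was present in 2 of the 20 promoters that could be matched (10%) and in 1.43% of the promoters of all counted symbols. Both are shown with the match in capitals, since these are among the genes furthest apart. CHAC1 lies on chromosome 15 (plus strand) and ASNS on chromosome 7 (minus strand).
CHAC1, chr15:40953232-40953299: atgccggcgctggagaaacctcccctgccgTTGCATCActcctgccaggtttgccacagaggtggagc
ASNS, chr7:97872439-97872506: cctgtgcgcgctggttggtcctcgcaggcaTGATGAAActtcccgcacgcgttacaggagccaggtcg

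CHAC1, an enzyme that degrades glutathione, had a level of 214 ppm in the siRNA control, 6.83 ppm in the shRNA control and 13 ppm in the SKBR3 siRNA control. ASNS, which makes asparagine, was at 457, 20.7 and 56.5 ppm in the same order. The siRNA control was thus 31.3-fold and 22-fold above the shRNA control, and the SKBR3 control lay nearer the shRNA control. NUPR1, a small stress-induced nuclear protein, was at 555 ppm in the siRNA control and 10.4 ppm in the shRNA control. The mitochondrial folate enzyme ALDH1L2 was at 49.9 and 0.755 ppm, and cystathionine gamma-lyase (CTH) at 71.9 and 2.64 ppm. DDIT3 (CHOP), a pro-apoptotic factor of this response, was at 179 and 12.5 ppm, and the pseudokinase TRIB3 at 638 and 106 ppm.

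The enzymes of serine synthesis lay in the same direction. PHGDH, which opens serine synthesis, was at 513 ppm in the siRNA control and 138 ppm in the shRNA control. PSAT1 and PSPH, the next enzymes, were at 1086 and 185 ppm and at 107 and 48.2 ppm. SHMT2 and MTHFD2, which pass serine carbon to mitochondrial folate, were 5.05-fold and 2.66-fold higher in the siRNA control. Among amino acid transporters, the cystine importer SLC7A11 was at 35.9 and 5.25 ppm, and the leucine importer SLC7A5 at 1740.0 and 529 ppm. ATF4 mRNA itself was at 742 and 444 ppm, less than 2-fold apart, and 2 members lay the other way, ATF5 (32.6 and 59.8 ppm) and CEBPB (225 and 415 ppm). In the TFAP2C siRNA group 0 of the 25 were 2-fold from the siRNA control. The SKBR3 siRNA control had a median log2 ratio of -2.29 to the HCC1954 siRNA control over this list, and of 0.24 to the shRNA control. NUPR1 (173 ppm in SKBR3) and ALDH1L2 (11.8 ppm in SKBR3) lay between the HCC1954 controls. These 25 genes had a median of -2.21 once the trend in length and GC was removed.

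Chaperones of the endoplasmic reticulum gave a smaller median (-0.70). Of 22, 9 were at least 2-fold higher in the siRNA control and 0 in the shRNA control (40.9%, beside 36.7% of all symbols and 32.2% of protein-coding ones). HERPUD1, which serves the degradation of misfolded proteins, was at 167 and 26.1 ppm, the factor XBP1 at 1064 and 273 ppm, and the lumenal chaperones HSP90B1 and HSPA5 were 3.74-fold and 2.74-fold higher. CALR and PDIA4, of the same compartment, were at 483 and 542 ppm and at 266 and 317 ppm. Of 15 heat shock genes counted, 13 were within 2-fold, and the median was 0.27. The share past 2-fold was 13.3%, beside 36.7% of all symbols and 32.2% of protein-coding ones. The 2 past it were HSP90AA1, at 621 ppm in the siRNA control and 2285 ppm in the shRNA control, and HSPA8, at 825 and 1749 ppm. None of the 15 was 2-fold higher in the siRNA control.

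Of 26 immediate early genes, 11 were 2-fold higher in the siRNA control and 2 in the shRNA control, beside 17.0% and 19.7% of all symbols. The median was -0.75, and 13 were within 2-fold. DUSP5 and DUSP6, phosphatases that shut off ERK kinases and are made in response to them, were at 303 and 29.1 ppm and at 183 and 57.3 ppm. ATF3, NR4A1 and EGR1 were 4.90-fold, 4.95-fold and 4.87-fold higher in the siRNA control. JUND (47 and 111 ppm) and DUSP2 (0.194 and 1.12 ppm) were 2-fold higher in the shRNA control. MYC was equal, at 82.2 and 83.3 ppm.

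Interferon-stimulated genes were lower in the shRNA control. Of 39 counted, 23 were at least 2-fold higher in the siRNA control and 0 in the shRNA control (59%, beside 32.2% of protein-coding symbols). On the siRNA side lay 36 of 39 (median -1.11). The interferon-stimulated response element was searched as 2 copies of GAAA with any 2 bases between them, on both strands of the same 250 bases. It was present in 18 of 31 matched promoters of the list (58.1%) and in 2.26% of the promoters of counted symbols. Promoter stretches of 3 members are shown, with matches in capitals. Their log2 ratios (-4.05, -1.49 and -1.48) all lay beyond the list median and do not span its range. OAS3, with a log2 ratio of 0.53, also carries the element.
IFI27, chr14:94110598-94110680: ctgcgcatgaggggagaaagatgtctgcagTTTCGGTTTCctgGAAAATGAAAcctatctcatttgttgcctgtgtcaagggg
IFIT1, chr10:89392477-89392559: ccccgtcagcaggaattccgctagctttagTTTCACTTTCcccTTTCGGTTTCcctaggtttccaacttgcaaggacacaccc
ISG15, chr1:1013354-1013429: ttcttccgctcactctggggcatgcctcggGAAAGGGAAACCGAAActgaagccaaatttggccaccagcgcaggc

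IFI27, a protein strongly induced by type I interferon, was at 1075 ppm in the siRNA control, 64.7 ppm in the shRNA control and 1.56 ppm in SKBR3. IFIT1, which binds viral RNA, was at 24.8 and 8.83 ppm, and the ubiquitin-like modifier ISG15 at 302 and 108 ppm. OAS2 and OASL, of the oligoadenylate synthetase family that is triggered by double-stranded RNA, were 6.05-fold and 5.47-fold higher in the siRNA control, and IFIT2 5.43-fold. OAS3, of the same family, lay the other way (98.8 and 143 ppm), as did SAMD9 (75.2 and 92.9 ppm). STAT2 and IRF9, subunits of the factor that binds these response elements, were at 51.2 and 26.5 ppm and at 187 and 83 ppm. Levels of ISG15 were higher still in the TFAP2C siRNA group (697 ppm). In the SKBR3 siRNA control the list lay below both, with a median log2 ratio of -3.05 to the siRNA control and -2.10 to the shRNA control.

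Of 16 sensors of foreign nucleic acid counted, 4 were 2-fold higher in the siRNA control and 1 in the shRNA control. Together these were 31.2%, beside 36.7% of all symbols and 32.2% of protein-coding ones. Their median was -0.22, and -0.68 when each gene was represented by its accession of highest mean. DHX58, a regulator of RNA sensing, was at 14.2 and 2.99 ppm, STING1 at 135 and 41.3 ppm, IFI16 at 279.5 and 137 ppm and AIM2 at 5.11 and 2.11 ppm. CGAS was at 1.41 and 2.93 ppm, and the RNA-activated kinase EIF2AK2 (PKR) at 74.1 and 64.1 ppm. RNA interference genes, on which both kinds of control depend, had a median of 0.00. The 1 of 14 past 2-fold (7.14%, beside 32.2% of protein-coding symbols) was AGO4 (25.9 and 8.53 ppm). DICER1, the nuclease that hairpins need and synthetic short duplexes do not, was at 43.4 and 34.8 ppm, AGO2 at 19 and 16.9 ppm, and the exporter XPO5 at 61.9 and 71 ppm.

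Antigen presentation genes had a median of -1.05. Of 20, 11 were at least 2-fold higher in the siRNA control and 0 in the shRNA control (55%, beside 32.2% of protein-coding symbols). The immunoproteasome subunits PSMB8, PSMB9 and PSMB10 were at 62.1 and 18.9 ppm, 21.1 and 4.86 ppm, and 308 and 61.3 ppm. HLA-C was at 378 and 154 ppm and HLA-DRA at 6.03 and 1.18 ppm. Reads of HLA genes can be split among close copies and alleles, so their single values are uncertain. TAPBP was the only member higher in the shRNA control (60.8 and 80.4 ppm). Of 31 constitutive proteasome subunits, 6 were 2-fold higher in the siRNA control and 0 in the shRNA control (median -0.39), with PSMA6 furthest apart (489 and 123 ppm). The 6 were 19.4%, beside 17.0% of all symbols and 1824 of the 12714 protein-coding ones.

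NF-kB cytokines and chemokines lay in the opposite direction to the interferon genes. Of 31 counted, 21 were at least 2-fold higher in the shRNA control, beside 19.7% of all symbols, and 2 in the siRNA control (median 1.79). A published NF-kB consensus, of which the degenerate letters are not spelled here, was present on either strand in 13 of 23 matched promoters (56.5%) and in 5.86% of the promoters of counted symbols. It is nearly its own reverse complement, and matches on the 2 strands can overlap. These stretches of 3 chemokine genes carry the matches in capitals.
CXCL3, chr4:74038728-74038798 (minus strand): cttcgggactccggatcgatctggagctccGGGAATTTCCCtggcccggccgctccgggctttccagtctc
CXCL2, chr4:74099233-74099303 (minus strand): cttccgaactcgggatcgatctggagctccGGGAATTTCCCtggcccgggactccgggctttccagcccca
CCL20, chr2:227813733-227813802 (plus strand): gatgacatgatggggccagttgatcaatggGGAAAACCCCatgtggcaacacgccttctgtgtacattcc

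CXCL3, a neutrophil attractant, was at 0.962 ppm in the siRNA control and 64.8 ppm in the shRNA control. Its neighbour CXCL2, with which it shares most of the stretch shown, was at 8.72 and 96.7 ppm, and these close copies may exchange reads. CCL20, which attracts lymphocytes through CCR6, was at 1.97 and 68.4 ppm, with 1.98 ppm in SKBR3. CXCL8 (interleukin 8) was at 127 and 1442 ppm, the monocyte attractant CCL2 at 26.8 and 608 ppm and complement C3 at 3.37 and 41.9 ppm. Differences were also seen in genes that NF-kB induces to restrain it. NFKBIA was at 116 and 382 ppm and TNFAIP3 (A20) at 9.72 and 73.6 ppm. Mitochondrial superoxide dismutase, SOD2, was at 162 and 977 ppm. The subunits were less apart, with NFKB1 at 27.5 and 44.1 ppm and RELB at 25.6 and 31.8 ppm. CCL5 and IL32 were the members 2-fold higher in the siRNA control (25.2 and 10.4 ppm, 2.62 and 1.12 ppm), and CCL5 is known to be induced by interferon regulatory factors as well. In the TFAP2C siRNA group 5 of the 31 were 2-fold from the siRNA control (median 0.14).

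Replication genes had the highest median of the lists (1.80). Of 39, 31 were at least 2-fold higher in the shRNA control and 0 in the siRNA control (79.5%, beside 32.2% of protein-coding symbols). On the shRNA side lay 38. E2F sites were searched as the 4 words TTTCCCGC, TTTCGCGC, TTTGCCGC and TTTGGCGC on both strands. At least 1 was present in 13 of 33 matched promoters (39.4%) and in 4.42% of those of counted symbols. No match in any of the 11 promoters shown overlapped a match of another motif. For 3 members the stretch with the match in capitals is as follows.
TYMS, chr18:657584-657651 (plus strand): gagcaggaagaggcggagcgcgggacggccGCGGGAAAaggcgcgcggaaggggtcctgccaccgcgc
PCNA, chr20:5126644-5126711 (minus strand): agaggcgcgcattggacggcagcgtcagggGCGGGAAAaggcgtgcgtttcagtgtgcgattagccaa
GINS2, chr16:85688955-85689015 (minus strand): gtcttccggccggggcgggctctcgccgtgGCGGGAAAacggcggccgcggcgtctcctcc

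TYMS, which makes thymidylate, was at 26.6 ppm in the siRNA control, 21 ppm in the TFAP2C siRNA group, 403 ppm in the shRNA control and 137 ppm in the SKBR3 siRNA control. The ribonucleotide reductase subunit RRM2 was at 54.4, 47.2, 879 and 190.5 ppm in the same order. In both genes the shRNA control was the highest of the 4 groups and SKBR3 lay between. The sliding clamp PCNA was at 228 and 1405 ppm, the flap nuclease FEN1 at 59.5 and 479.6 ppm, and GINS2, part of the replicative helicase, at 40.7 and 273 ppm. The helicase subunits MCM2 and MCM7 were 3.89-fold and 1.76-fold higher. Cyclin E2 (CCNE2) was at 15.1 and 189 ppm, whereas cyclin D1 (CCND1), the sole member on the other side, was at 2119.9 and 1134 ppm.

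Mitosis genes showed the same direction at a smaller size (median 1.06, 21 of 36 higher in the shRNA control, 1 in the siRNA control). Together these were 61.1%, beside 32.2% of protein-coding symbols. The proliferation antigen MKI67 was at 32.7 and 233 ppm, the cytokinesis protein ANLN at 83 and 560.4 ppm and cyclin A2 (CCNA2) at 34.1 and 187 ppm. Cyclin B2 (CCNB2), PLK1 and CDC25C were nearly equal, at 93.4 and 95.3, 118 and 135, and 19.8 and 19.9 ppm. PTTG1 (securin) was lower in the shRNA control (134 and 46.1 ppm). Of 7 inhibitors of cyclin-dependent kinases, 4 were 2-fold higher there, beside 19.7% of all symbols. CDKN1A (p21) was at 37.5 and 100.3 ppm, CDKN2A at 56.3 and 184 ppm, CDKN2C at 11.3 and 105 ppm and CDKN2D at 25.5 and 112 ppm. CDKN1B, CDKN2B and CDKN1C were at 34.1 and 38.6, 39.4 and 38.5, and 2.34 and 1.17 ppm. Of the 29 genes of the p53 list, which holds these inhibitors, 37.9% were 2-fold apart, beside 36.7% of all symbols and 32.2% of protein-coding ones. The 4 inhibitors were its members 2-fold higher in the shRNA control, and 7 were higher in the siRNA control, led by GDF15 (921 and 25.4 ppm), SESN2 (108 and 9.07 ppm) and PLK3 (28 and 7.45 ppm). SESN2 is also on the ATF4 list. MDM2, a classical p53 target, was at 22.3 and 20.2 ppm.

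Cytosolic ribosomal protein genes summed to 86815 ppm in the siRNA control, 34117 ppm in the shRNA control and 95763 ppm in the SKBR3 siRNA control. Of 78, 51 were at least 2-fold lower in the shRNA control and 1 higher (66.7%, beside 32.2% of protein-coding symbols). RPS21 was at 891, 29.9 and 233 ppm in these 3 groups, RPS12 at 2182, 95.5 and 318 ppm, and RPL30 at 6209, 1560.4 and 1067 ppm. RPL41, whose coding sequence is among the shortest known, was the exception past 2-fold (559.7 and 1624 ppm), and RPL29 and RPS2 also lay on the shRNA side (1.87-fold and 1.53-fold). Ribosomal protein genes have many processed pseudogene copies, and reads can be divided among these. Mitochondrial ribosomal proteins had a median of 0.28, with 4 of 44 higher in the shRNA control and 1 in the siRNA control. Together these were 11.4%, beside 32.2% of protein-coding symbols. Long nuclear and host noncoding RNAs had a median of -0.06. Of 20, 5 were higher in the shRNA control and 6 in the siRNA control (together 55%, beside 36.7% of all symbols). Among them are host genes of snoRNAs, of which GAS5 was at 349 and 18.3 ppm, SNHG5 at 367 and 23.5 ppm and ZFAS1 at 1449 and 158 ppm. MALAT1 and NEAT1 were at 99.2 and 200.1 ppm and at 578 and 503 ppm. Whether reads of a host transcript and its intronic snoRNA were divided the same way in both tables was not tested. Leaving ribosomal protein genes out of the scale left 5452 symbols 2-fold apart.

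Genes of epithelial identity were divided. Luminal genes had a median of -1.05, with 12 of 20 higher in the siRNA control and 1, KRT19, in the shRNA control. Together these were 65%, beside 32.2% of protein-coding symbols. KRT23 was at 323 and 49.1 ppm, the tight junction claudin CLDN7 at 685 and 223 ppm, and the luminal factor GATA3 at 56.6 and 24.7 ppm. FOXA1 and GRHL2, other epithelial factors, were at 159 and 199 ppm and at 102 and 102 ppm. Basal and myoepithelial genes had a median of 0.61, with 9 of 20 higher in the shRNA control and 3 in the siRNA control (together 60%). KRT5, the basal keratin, was at 95.9 and 695 ppm, caveolin CAV1 at 42.2 and 539.7 ppm and the basal factor TP63 at 34.1 and 88.1 ppm. KRT16, KRT75 and the hair keratin KRT81 lay the other way (89.3 and 23, 24.1 and 4.78, 5910.2 and 1799 ppm). In a bulk culture, fewer cells of a state and less RNA per cell cannot be told apart.

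All 18 counted mesenchymal genes were higher in the shRNA control (median 1.60). Past 2-fold were 12 of them (66.7%, beside 32.2% of protein-coding symbols). The matrix glycoprotein tenascin C (TNC) was at 3.22 ppm in the siRNA control, 25.2 ppm in the TFAP2C siRNA group and 186 ppm in the shRNA control. Fibronectin (FN1) was at 36.3, 51.3 and 544 ppm, and the gelatinase MMP2 at 10.8, 11.6 and 81.4 ppm. The intermediate filament gene VIM stayed low (9.09 and 13.5 ppm), E-cadherin stayed high, as given above, and SNAI2 was at 15.7 and 32 ppm. Genes of TGF-beta and BMP signalling had a median of 0.88, with 11 of 25 higher in the shRNA control and 2 in the siRNA control (together 52%). INHBA, the activin A subunit, was at 15.9 and 69.7 ppm and TGFB2 at 62.2 and 191 ppm, while LTBP1 and LTBP3, which hold TGF-beta in the matrix, were at 54.2 and 14.4 ppm and at 91.9 and 28.7 ppm.

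**Figure D4:**
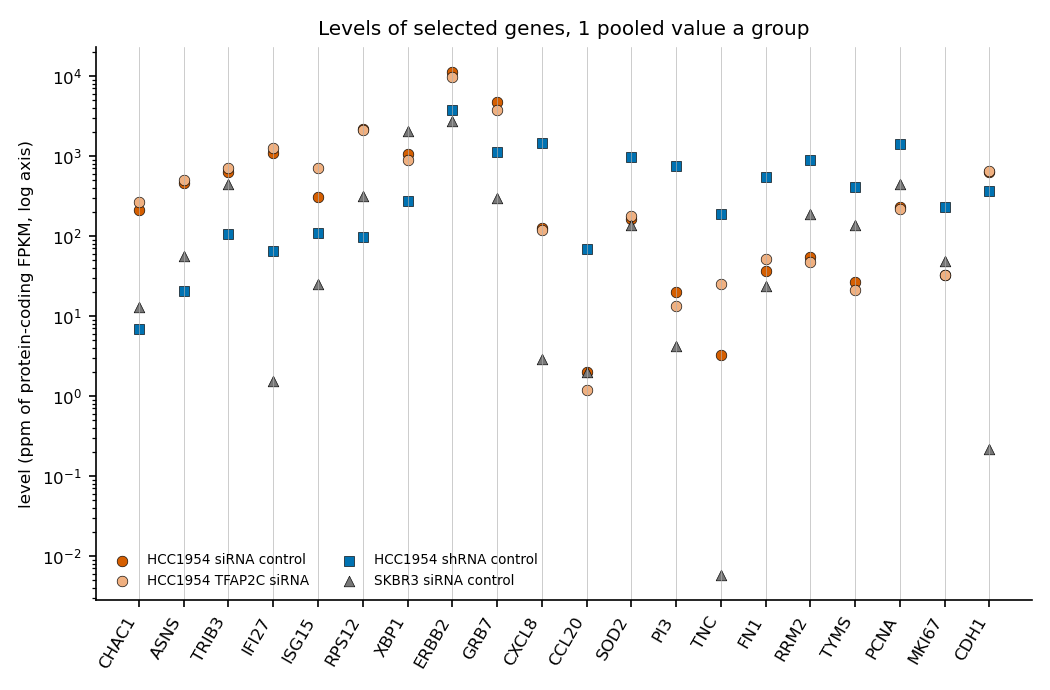
Levels (ppm of protein-coding FPKM, log axis) of 20 genes in the HCC1954 siRNA control, the HCC1954 TFAP2C siRNA group, the HCC1954 shRNA control and the SKBR3 siRNA control, 1 pooled value each. The 2 siRNA groups of HCC1954 lie close together for most genes, with TNC and ISG15 as exceptions. The shRNA control lies below them from CHAC1 to GRB7 and in CDH1, and above them from CXCL8 to MKI67.

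Epidermal differentiation and defence genes contained large differences in both directions (13 of 28 higher in the shRNA control, 8 in the siRNA control). Together these were 75%, beside 32.2% of protein-coding symbols. The list median was 0.63, and 0.28 with FPKM as deposited. The antimicrobial S100 protein S100A7 (psoriasin) was at 124 and 2813 ppm, the elastase inhibitor PI3 (elafin) at 20.1 and 750.2 ppm, and the serpins SERPINB3 and SERPINB4, close copies of each other, at 5.55 and 229 ppm and at 4.69 and 299 ppm. S100A8 and S100A9, the calprotectin subunits, were at 3712 and 10623 ppm and at 13636 and 27582 ppm, and S100A9 was the most abundant protein-coding gene of both controls. Kallikreins lay the other way. KLK5 was at 2230.1 and 808 ppm, KLK6 at 1983 and 685 ppm, KLK7 at 26.9 and 6.95 ppm and KLK8 at 392 and 142 ppm. The beta-defensin DEFB1 was at 297 and 52.7 ppm.

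ERBB2 itself differed between the controls. It was at 11154 ppm in the siRNA control and 3772 ppm in the shRNA control, 2.96-fold apart, with 2709 ppm in SKBR3. Of 17 counted genes around ERBB2 on 17q12, 8 were at least 2-fold higher in the siRNA control and 0 in the shRNA control (47.1%, beside 32.2% of protein-coding symbols). On the siRNA side lay 15 of the 17, by unequal amounts (log2 ratios of the list from -3.35 to 0.81). GSDMB was at 1549 and 152 ppm, GRB7 at 4672 and 1114 ppm and the lipid transporter STARD3 at 2999.6 and 1234 ppm. MIEN1, between GRB7 and ERBB2, was at 2789 and 2452 ppm, ORMDL3 at 5684 and 3939 ppm, and CDK12, on the other side of ERBB2, at 42.6 and 74.7 ppm. Most of the ERBB2 signal was in accession NM_004448 in both tables (4205 and 1315 FPKM). The partner ERBB3 was at 92.6 and 33.8 ppm and EGFR at 55.3 and 82.9 ppm. Among the ligands, HBEGF, TGFA and EPGN were at 7.82 and 1.99, 56.1 and 24.1, and 14.8 and 4.77 ppm, and EREG alone was 2-fold higher in the shRNA control (1.17 and 4.21 ppm). Over the ERBB list, 7 of 11 were 2-fold higher in the siRNA control and 1 in the shRNA control (together 72.7%). TFAP2C, the target of the knockdowns for which these are controls, was at 220.4 and 200.4 ppm, and its relative TFAP2A at 47.3 and 62.4 ppm, each less than 2-fold apart.

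Metabolic lists were mixed. NRF2 targets and aldo-keto reductases had a median of -0.74. Of 28, 11 were higher in the siRNA control and 2 in the shRNA control (together 46.4%, beside 36.7% of all symbols and 32.2% of protein-coding ones). AKR1B10 was at 506 and 108 ppm, AKR1C1 at 459.7 and 152 ppm and NQO1 at 1246 and 547 ppm, whereas the NRF2 targets TXNRD1, SRXN1 and GCLM were at 528 and 474, 334 and 373, and 95 and 106 ppm. ALDH3A1, an aldehyde dehydrogenase, was at 5.08 and 0.595 ppm. The members 2-fold higher in the shRNA control were ALDH1A1, of the same family and low in both (0.0671 and 4.75 ppm), and the carbonyl reductase CBR3 (12.3 and 66.3 ppm). Hypoxia and glycolysis genes had a median of 0.57, and of 1.30 when each gene was represented by its accession of highest mean. Of 29, 13 were higher in the shRNA control and 2 in the siRNA control (together 51.7%). Carbonic anhydrase CA9, a classical hypoxia gene, was at 0.618 and 14.8 ppm, NDRG1 at 33.1 and 169 ppm and lactate dehydrogenase LDHA at 288 and 795 ppm. VEGFA lay the other way (437 and 227 ppm), as did hexokinase HK2 (56.1 and 21.4 ppm). Cholesterol genes had a median of 0.57, with the sterol carrier STARD4 furthest apart (2.07 and 35 ppm). Of 24, 6 were higher in the shRNA control and 1 in the siRNA control, together 29.2% beside 36.7% of all symbols and 32.2% of protein-coding ones. Nuclear genes of the respiratory chain had a median of -0.37, with 8 of 39 higher in the siRNA control and 2 in the shRNA control. Together these were 25.6%, beside 36.7% of all symbols and 32.2% of protein-coding ones.

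Neighbouring genes differed together in some stretches of the genome. Over 11616 protein-coding genes in chromosome order (coordinates of the files, GRCh37), 1259 running medians of 41 genes (10.8%) lay at least 0.5 from the overall median, in a range of -1.35 to 1.10. For the TFAP2C siRNA group over the siRNA control the number was 0 and the range -0.16 to 0.30. All window medians here are given after subtracting the overall median of these genes (0.10). Windows overlap, so their number is not a count of separate regions. On 10p, at chr10:1064846-14879983, 37 of 41 genes were higher in the siRNA control, with a window median of -1.06 (-1.17 after the length and GC trend was removed). It holds AKR1C1, AKR1C2, AKR1C3, GATA3, IL15RA (31.7 and 8.60 ppm), the ATP synthase subunit ATP5F1C (373 and 54.5 ppm), CDC123 (90.8 and 34.1 ppm) and PITRM1 (94.1 and 42.8 ppm), so several genes named above are neighbours there. The whole short arm of chromosome 10 had a median of -0.77 over 106 genes relative to all genes.

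The highest window lay on 9p, at chr9:12693385-33264759, with a median of 1.10 and 34 of 41 genes higher in the shRNA control. It holds CDKN2A and MTAP (34.7 and 77.7 ppm), the chromatin reader PSIP1 (176 and 510.5 ppm), the galactosyltransferase B4GALT1 (271 and 809.9 ppm) and CNTLN (14.9 and 102 ppm), while CDKN2B, next to CDKN2A, was equal (39.4 and 38.5 ppm). On 11q, at chr11:105921824-115375241, 37 of 41 genes were higher in the shRNA control (median 0.82), among them SDHD (73.6 and 208 ppm), IL18 (31.2 and 104 ppm) and PPP2R1B (23.4 and 65.9 ppm). The window at chr1:151483861-153752636 (median 0.87) is the epidermal differentiation cluster with the S100 genes, a neighbourhood of related genes. The lowest window, at chr19:48958963-50002969 (median -1.35, 34 of 41 higher in the siRNA control), includes FTL (3818 and 1554 ppm) and RPL18 (1605 and 187 ppm), and its median was -1.08 after the trend was removed. The window centred on CDK12 (chr17:36337527-38351908), which also holds ERBB2, had a median of -0.996, and -0.63 after the trend was removed. The window centred on ERBB2 had a median of -0.73. Arm medians relative to all genes were 0.57 on 8p, 0.51 on 9p, 0.44 on 20q and -0.46 on 16p. DNA copy number was not measured, and its part in these stretches was not tested.

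**Figure D5:**
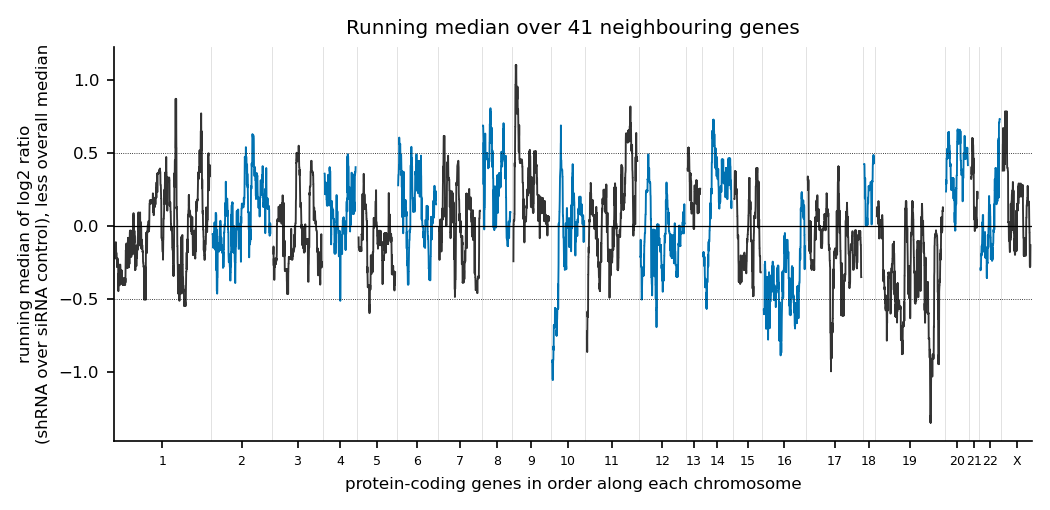
Running median of the log2 ratio (shRNA over siRNA control) over 41 neighbouring protein-coding genes, less the overall median, with genes in order along each chromosome on the x axis. Colours alternate by chromosome and dotted lines mark 0.5 from the overall median. The lowest stretches are on chromosomes 19 (-1.35), 10 (-1.06) and 17 (-0.996), and the highest on 9 (1.10).

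Beyond the lists, the protein-coding genes furthest apart, among those at 10 ppm or more in the higher control and above 0.1 ppm in the lower, were as follows. In the shRNA control the synaptic protein NRGN was at 24 ppm against 0.229 ppm, MOB3B at 11.9 against 0.177 ppm, the placental hormone INSL4 at 11.3 against 0.182 ppm, and the palmitoyltransferase ZDHHC2 at 10.1 against 0.21 ppm. TNIP3, an inhibitor of NF-kB signalling, was at 31.6 against 0.707 ppm, and CD83, which NF-kB induces, at 29.5 against 0.757 ppm. The cyclin-dependent kinase CDK14, the kinesin KIF6 and the zinc finger gene ZNF534 were at 30.8 against 0.69, 16.6 against 0.375, and 126 against 3.75 ppm. CXCL3, SERPINB3, SERPINB4, TNC, PI3 and CCL20 complete these 15.

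In the siRNA control the hair keratin genes KRT82, KRT83 and KRT85 were at 22 against 0.161 ppm, 442 against 3.62 ppm, and 123 against 2.26 ppm, and KRT84 was at 18.3 ppm and listed at 0 in the shRNA control. These belong to the family of the far more abundant KRT81, of which KRT83 is a close copy, and their values are uncertain. The metallothionein MT1G (37.3 against 0.463 ppm) also has close copies, and MT1X and MT2A were at 495 and 170.1 ppm and at 1959 and 1440.0 ppm. PLAC8 was at 24.4 against 0.377 ppm and skeletal actin ACTA1 at 17.6 against 0.451 ppm. ALDH1L2, NUPR1 and GDF15 are also in this group. TGIF2-RAB5IF, ABCF2-H2BK1, PPIAL4E, PPIAL4G, HNRNPCL2 and H2BC6 complete the 15, and as read-through transcripts or near-identical copies they are uncertain. Among genes listed at 0 in the siRNA control the highest in the shRNA control were C19orf81 (7.72 ppm) and ETDC (5.82 ppm), and the oestrogen-induced TFF1 was at 1.94 ppm. Among those listed at 0 in the shRNA control were CRIP1 (7.20 ppm) and MAGEA12 (5.27 ppm). In all, 460 symbols counted were listed at 0 in 1 of the controls, where no fold is given.

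The most abundant protein-coding genes overlapped in part. S100A9, ORMDL3, RACK1 and LCN2 were among the 10 highest of these in both controls. RPL30, ERBB2, KRT81, GRB7, KRT15 and S100A11 completed the list in the siRNA control, and S100A8, ACTB, ACTG1, GAPDH, FTH1 and YWHAZ in the shRNA control. ACTB was at 3266 and 7728 ppm, GAPDH at 3363 and 4994 ppm and YWHAZ at 1357 and 4081 ppm. These genes are common references for expression assays. Of 18 housekeeping references, 6 were at least 2-fold higher in the shRNA control and 1, RPLP0 (1597 and 438 ppm), in the siRNA control. Together these were 38.9%, beside 36.7% of all symbols and 32.2% of protein-coding ones. TBP and GUSB were closest to equal (31.9 and 34.7 ppm, 85.9 and 78.7 ppm).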

How the data were processed

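RNA of the 2 HCC1954 control groups (3 samples each) was compared from the authors' deposited tables. Bowtie 0.12.2, Cuffdiff and the builds hg19 and GRCh37 appear in the submitters' processing notes, with no Cuffdiff version. Per the file headers, the authors gave 1 pooled FPKM for each RefSeq accession and group, and each table was normalized separately. The deposited p-value and q-value columns served only to mark entries with a completed test. The columns of the siRNA table name no line, and only its deposited file name gives HCC1954. Both tables held the same 66321 accessions, of which 65468 matched 27431 symbols (19065 protein-coding) through RefSeq names and 853 did not. FPKM were summed by symbol and scaled to 1000000 over protein-coding symbols (Python 3.11.15, pandas 2.3.3, NumPy 2.4.6). The scaling was checked on simulated data. No pseudocount was used.

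The comparison, the gene lists, the motifs and the promoters shown were chosen with earlier results of these data known, and no list is independent evidence. The text names TFAP2C, TFAP2A, ERBB2, ERBB3, EGFR, GRB7 and CDKN1A, the 15 genes per direction furthest apart (10 ppm or more in the higher control, above 0.1 in the lower, 1 direction under every scaling), genes at 0 in 1 control, the 10 highest of each, line markers and the members of each list furthest apart with those going the other way. The remaining names, among them the less different members given for contrast and the genes inside the windows of the genome, were chosen after their values were seen. Promoters are RefSeq sequences of GRCh38.p14, and coordinates of genes and windows are those of the files. Alternatives changed the scale, the level floor, the transcript used, the genes included, the fold, the window and the correction for length and GC.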

Additional observations from a re-analysis of the deposited data

How the results depend on the processing

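The number of symbols at least 2-fold apart (5446) ranged from 3991 to 6709, apart from the completed-test and 4-fold settings given below. The lowest came with a floor of 5 ppm and the highest when each symbol was represented by its highest accession. Several settings also change which symbols are counted, so these numbers do not share the base of 14824 symbols. Among protein-coding symbols with a completed test in both tables the number was 2063 (1202 higher in the shRNA control, 861 in the siRNA control), and at 4-fold it was 2172 (1056 and 1116). With the log2 ratio centred on a median of 0, which takes up the median difference of 0.13, 2605 were higher in the shRNA control and 2737 in the siRNA control. Windows of 21 genes gave 2088 medians at least 0.5 from the overall median, and 993 of the 41-gene windows passed after the trend in length and GC was removed. Of 240 list medians under 6 alternatives, none of a list with a median of 1 or more in size changed sign, while 16 medians of 7 lists did. All 7 lists had reported medians of 0.25 or less in size, among them RNA interference genes, the p53 list and long noncoding RNAs. By more than 0.32 (the SD between the groups of the siRNA table), 6 medians moved. Among them were hypoxia, sensor and spliceosome genes with the accession of highest mean (1.30, -0.68 and 0.71). The others were epidermal genes with FPKM as deposited (0.28), the genes around ERBB2 with a floor of 5 ppm (-0.95, from -0.63) and small structural RNAs once the trend was removed (2.32). Lists with a median of 1 or more in size numbered 9 or 10 in each. The lists furthest apart, ATF4 stress genes and replication genes, ranged from -2.54 to -2.21 and from 1.71 to 1.80. Protein-coding symbols alone and a scale without ribosomal protein genes were chosen after seeing the data. No paired analysis was possible because the tables hold 1 pooled value a group and no value of a single sample, and for the same reason no replicate could be left out. Depth is unknown, and low values carry an error that cannot be given.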
